A study of Arabidopsis thaliana with 6 samples.

Results

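Hypoxia-response genes are described here by 10 loci of the TAIR10.1 annotation, of 37899 genes on the nuclear chromosomes. They were the divergent pair AT4G10265 and AT4G10270, ALCOHOL DEHYDROGENASE 1 (ADH1, AT1G77120), PYRUVATE DECARBOXYLASE 1 (PDC1, AT4G33070), HYPOXIA RESPONSIVE ERF 1 and 2 (HRE1, AT1G72360; HRE2, AT2G47520), PLANT CYSTEINE OXIDASE 1 and 2 (PCO1, AT5G15120; PCO2, AT5G39890), PHYTOGLOBIN 1 (PGB1, AT2G16060) and HYPOXIA RESPONSE ATTENUATOR 1 (HRA1, AT3G10040). The list was chosen by locus with the brm against wt H3K27me3 levels of these libraries already known, AT4G10265 among them, so those values are a description and carry no test. H3K27me3, trimethylated lysine of histone H3, was profiled by ChIP-seq (sequencing of immunoprecipitated chromatin) in seedlings of Arabidopsis thaliana grown on MS agar for 14 days. The brm plants carried brm-1, a T-DNA null allele of BRAHMA (BRM), the ATPase of a SWI/SNF chromatin remodeler, and the wt plants were wild-type Col, the background of the mutant. Each genotype had 2 biological replicates of H3K27me3 and 1 input, chromatin sequenced without immunoprecipitation. No expression was measured in these libraries, and no low-oxygen treatment was among the groups.

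Plants that run short of oxygen switch to fermentation, in which PDC and ADH turn pyruvate into ethanol. The switch is set by group VII ETHYLENE RESPONSE FACTORs (ERF-VIIs): in air, plant cysteine oxidases oxidize the N terminus of these proteins and so mark them for destruction, and under hypoxia the proteins persist and activate a core set of genes. H3K27me3, laid down by Polycomb Repressive Complex 2 (PRC2), is the mark of genes kept silent in a tissue, and BRM is best known as an antagonist of Polycomb function.

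The promoter sequences of 4 members are shown: AT4G10265, where the signal differed between the genotypes, its divergent partner AT4G10270, which lacked the mark, HRE2, whose promoter held the border of a domain, and PCO2, which was marked in both genotypes. Each runs from 250 bases before the annotated start through the first 30 transcribed bases, 5′ to 3′ on the strand of the gene, from the TAIR10.1 assembly of RefSeq. Capitals mark AAACCA on either strand, the core of the anaerobic response element known from ADH promoters. AT4G10265 lies on the minus strand and its window is chr4:6373638-6373917, and AT4G10270 lies on the plus strand with the window chr4:6374484-6374763. HRE2 lies on the minus strand (chr2:19503673-19503952) and PCO2 on the plus strand (chr5:15974020-15974299).
AT4G10265: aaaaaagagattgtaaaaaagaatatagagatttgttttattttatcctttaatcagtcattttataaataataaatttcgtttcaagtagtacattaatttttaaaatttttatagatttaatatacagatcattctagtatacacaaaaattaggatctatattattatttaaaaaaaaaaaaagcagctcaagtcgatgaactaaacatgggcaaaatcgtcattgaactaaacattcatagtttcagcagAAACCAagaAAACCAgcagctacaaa
AT4G10270: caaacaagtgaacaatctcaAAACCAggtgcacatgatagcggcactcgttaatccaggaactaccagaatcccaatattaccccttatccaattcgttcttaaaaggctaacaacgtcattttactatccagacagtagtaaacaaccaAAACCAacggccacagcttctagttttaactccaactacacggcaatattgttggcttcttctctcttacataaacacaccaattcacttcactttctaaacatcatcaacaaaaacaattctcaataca
HRE2: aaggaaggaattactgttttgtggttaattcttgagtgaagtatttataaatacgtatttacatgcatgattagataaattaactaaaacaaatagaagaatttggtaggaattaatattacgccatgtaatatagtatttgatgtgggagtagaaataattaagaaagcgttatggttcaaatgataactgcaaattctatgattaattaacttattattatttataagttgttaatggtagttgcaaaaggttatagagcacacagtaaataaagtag
PCO2: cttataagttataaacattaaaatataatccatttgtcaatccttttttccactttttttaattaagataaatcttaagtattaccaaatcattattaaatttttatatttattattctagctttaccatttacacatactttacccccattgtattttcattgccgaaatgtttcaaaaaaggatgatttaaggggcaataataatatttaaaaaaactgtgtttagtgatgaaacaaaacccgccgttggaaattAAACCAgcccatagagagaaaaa

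AAACCA was found in the windows of 6 of the 10 members, AT4G10265 (2 matches), AT4G10270 (2), PDC1 (3), ADH1 (1), PCO1 (1) and PCO2 (1), and 30.2% of the 27443 protein-coding promoters searched held it. Both matches of AT4G10265 lay within its first transcribed bases, whereas those of AT4G10270 began at -230 and -100 relative to its start. The hypoxia-responsive promoter element (HRPE), a longer motif that contains AAACCA and is bound by ERF-VIIs, was matched in PCO1 alone of the 10 windows, and 14 of all the promoters matched it. GAGAGA, a motif known from Polycomb response elements, was present in 4 members (AT4G10270, ADH1, PCO2 and PGB1) and in 25.2% of all promoters. Neither GCCGCC, the GCC box bound by ERFs, nor AAACCCTA, the telobox, occurred in a member (2.25% and 5.47% of all promoters). CACGTG, the G-box, was in ADH1 only, against 7.24% of all promoters. All motifs were searched on both strands, and a match is a stretch of letters, not a bound site.

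The brm H3K27me3 libraries held 9593473 and 8408612 nuclear reads and the wt libraries 8563827 and 9051298, with 5676681 reads in the brm input and 6342835 in the wt input. Many were copies of another read: with 1 read kept per position and strand, 28.3% and 38.2% of the brm reads and 27.9% and 23.4% of the wt reads were left, against 80.03% in the brm input and 68.9% in the wt input. Levels are reads over a gene span per 1000000 nuclear reads of the library (RPM), and 3 reads were worth 0.313 to 0.357 RPM in the H3K27me3 libraries. At least 98.9% of the 37-base stretches of each member occurred once in the genome, so nearly all of each span could receive reads that map to 1 place. ChIP of whole seedlings does not tell a lower level in every cell from fewer cells that carry the mark.

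Of the 10 members, only PCO2 was marked in brm, and PCO2 and AT4G10265 were marked in wt, where marked means that regions enriched over input in both replicates covered at least 50% of the gene span. The background was 19.3% of all genes in brm and 18.7% in wt. The other 8 members were unmarked in both genotypes. Per kb of gene span, PCO2 had 35.4 and 34.9 RPM in brm and 35.2 and 33.6 RPM in wt, and AT4G10265 had 7.11 and 5.95 RPM in brm and 31.3 and 35.5 RPM in wt. In wt these 2 genes were on a par, and their replicates overlapped. The highest value per kb of any of the other members was 6.02 RPM, for PCO1 in wt replicate 1, and their inputs lay between 6.92 and 12.9 RPM per kb. Thus the order in wt was AT4G10265 and PCO2, then PCO1 and HRE2, whose replicates overlapped, then a group of 5 whose replicates overlapped in part (HRE1, PGB1, PDC1, HRA1 and ADH1), and AT4G10270 at 0. In brm PCO2 came first and AT4G10265 next, without overlap, and the replicates of PCO1, HRE2 and ADH1 overlapped below them.

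**Figure D1:**
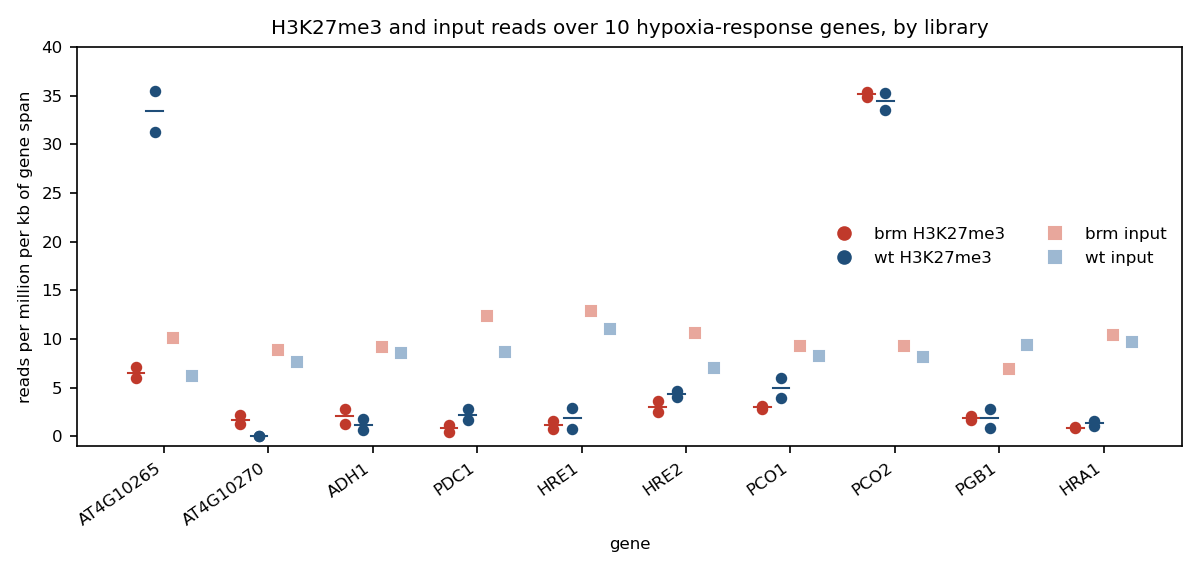
H3K27me3 (circles, 2 libraries per genotype with their mean as a line) and input (squares, 1 library per genotype) over the gene spans, in RPM per kb, for the 10 members on the x axis. PCO2 was high in both genotypes, AT4G10265 was high in the wt libraries only (31.3 and 35.5), and the other members lay below their inputs.

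AT4G10265 and AT4G10270 encode small proteins annotated as wound-responsive family proteins, and both belong to the genes induced by hypoxia across plant organs. AT4G10265 (chr4:6373008-6373667, minus strand) had 4.69 and 3.92 RPM in brm and 20.7 and 23.4 RPM in wt, with 6.69 RPM in the brm input and 4.10 RPM in the wt input. On total reads, brm replicate 1 lay within the range of the inputs and brm replicate 2 just below it, and both wt libraries lay far above it. As counts at distinct positions, the gene had 20 and 15 reads in brm and 44 and 57 reads in wt, so the genotypes did not overlap on this scale either. The log2 fold change, brm minus wt, was -2.35 ± 0.43 (SE), with a 95% interval from -3.25 to -1.45. Against the inputs, on total reads, it was -0.32 ± 0.48 in brm, which turned positive with the other scalings given below, and 2.03 ± 0.48 in wt. With 1 kb flanks added the fold change of brm against wt was -1.52 ± 0.25 (interval -2.04 to -0.999).

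Across all genes, edgeR called 0.0971% lower and 0.0777% higher in brm over the gene span at a false discovery rate (FDR) of 0.05. AT4G10265 was the 1 member called lower of 9 tested, and 0 members were called higher by edgeR or DESeq2 or had an unadjusted p under 0.05 in that direction. AT4G10265 was listed with this difference already known, so its calls and intervals describe it and test nothing. With flanks, 0.217% of genes were called lower and 0.42% higher (0.637% in all), and among the 10 members AT4G10265 was again the only call. Its downstream flank of 1 kb lies largely over the neighbouring gene AT4G10260. This flank held a wt mean of 31.3 RPM, against 22.0 RPM over the shorter span (33.4 RPM per kb). AT4G10260 with its own flanks had a log2 fold change of -1.57 ± 0.23. The call with flanks is therefore not a measure of AT4G10265 alone. The call over the span alone was lost without brm replicate 1 (log2 fold change -2.49), without brm replicate 2 (-2.23) and when reads were not moved towards the fragment centre (-1.92), whereas the call with flanks was kept under all 10 alternatives tried (-1.56 to -1.42).

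The signal of AT4G10265 was part of a short domain. In wt an enriched region ran over chr4:6372001-6373600, 1600 bp that covered 89.8% of the gene and reached into AT4G10260 on its 3′ side. In brm only chr4:6372601-6373000 remained enriched in both replicates, 400 bp that ended 8 bp beyond the 3′ end of the gene, so that 0% of the span was covered. Of the 8 bins of 200 bp in the wt region, both brm libraries lay below both wt libraries in 7. The bin with the highest mean in wt held 49.6 and 51.4 RPM per kb there and 26.6 and 21.4 in brm, at the start of AT4G10260. In the 1 kb downstream of AT4G10265 there were 12.2 and 14.0 RPM in brm and 34.4 and 28.1 RPM in wt. The 1 kb upstream of its start lacked the mark in both genotypes, with 2.40 and 0.83 RPM in brm, 1.17 and 1.33 RPM in wt, and 5.64 and 6.31 RPM in the brm and wt inputs.

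**Figure D2:**
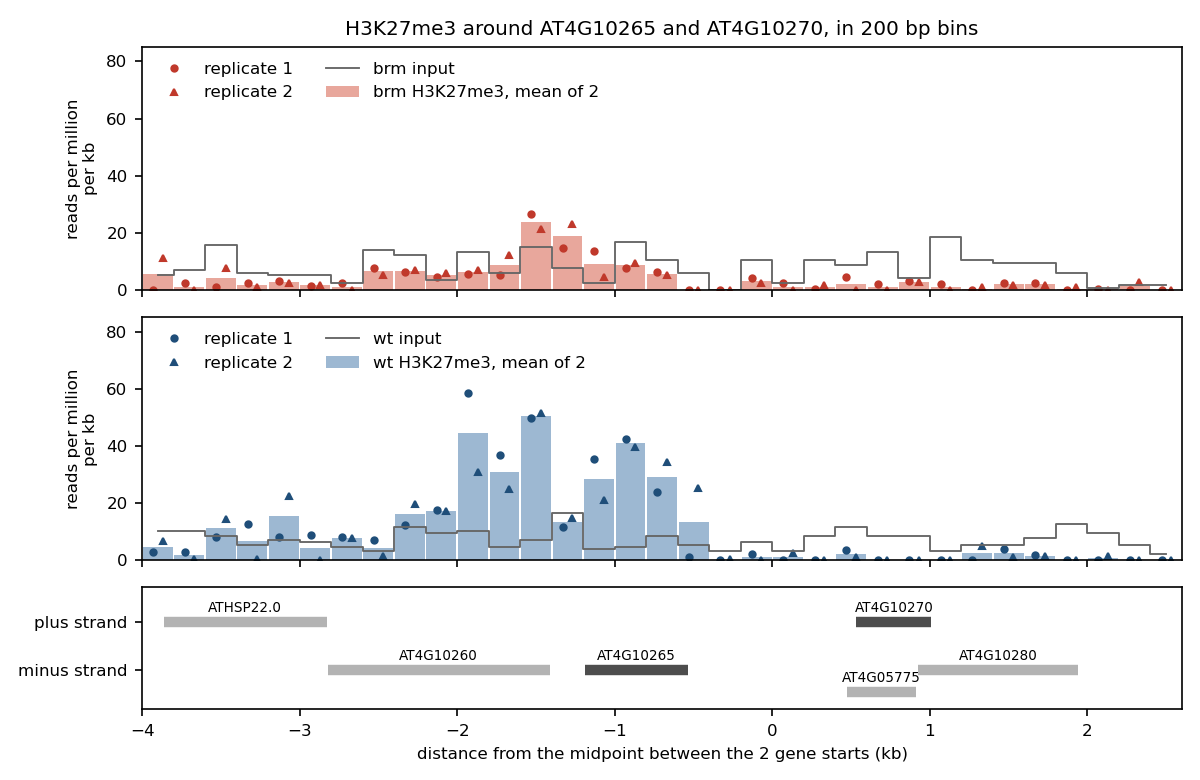
RPM per kb in 200 bp bins against the distance in kb from the midpoint between the starts of AT4G10265 and AT4G10270, with brm above and wt below; bars are means of 2 H3K27me3 libraries, points the single libraries, grey lines the inputs, and the lowest panel the annotated genes by strand. The wt signal covers AT4G10265 and the start of AT4G10260 and stops before AT4G10270, and in brm a peak of 26.6 and 21.4 is left at the start of AT4G10260.

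AT4G10270 (chr4:6374734-6375210, plus strand) starts 1066 bp from the start of AT4G10265, and it lacked the mark. It had 1.04 and 0.59 RPM in brm and no read in either wt library, with 4.23 RPM in the brm input and 3.63 RPM in the wt input. The brm values came from 2 and 1 distinct positions. Against its input, the wt level was at least 10.35-fold lower, with a limit of 3 reads per library. The gene overlaps the long non-coding RNA locus AT4G05775 by 377 bp and AT4G10280 by 86 bp, whose reads cannot be told from its own.

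AT4G10260, which encodes a carbohydrate kinase of the pfkB family, was the neighbour that shared the domain: it had 12.1 and 11.7 RPM in brm and 37.8 and 28.8 RPM in wt, a log2 fold change of -1.49 ± 0.32. The regions covered 13.4% of it in brm and 55.8% in wt. ATHSP22.0 (AT4G10250), a small heat shock protein gene next to it, had 1.88 and 2.74 RPM in brm and 7.82 and 8.29 RPM in wt. Its inputs were 7.93 RPM in brm and 7.57 RPM in wt, and no region covered it. Its log2 fold change was -1.80 ± 0.66 (interval -3.18 to -0.42), so the lower brm level reached beyond AT4G10260. Over their spans edgeR called neither gene (adjusted p = 0.51 for ATHSP22.0 and 0.077 for AT4G10260). Across the 6 libraries, the genes with levels per kb most like those of AT4G10265 were MYB53, a MYB transcription factor gene (Euclidean distance 0.757 on the log2 scale), AT4G10260 (0.994) and GPT1, a plastid glucose 6-phosphate translocator gene (1.085). MYB53 had 11.0 and 10.3 RPM in brm and 39.9 and 39.3 RPM in wt, and GPT1 had 14.9 and 12.7 RPM in brm and 54.6 and 64.2 RPM in wt. All 3 were therefore higher in wt, as the measure of likeness requires.

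The fermentation genes were not enriched. ADH1 (chr1:28975255-28977417, plus strand) had 6.15 and 2.74 RPM in brm and 1.28 and 3.87 RPM in wt, below its inputs of 19.7 RPM in brm and 18.6 RPM in wt. The genotypes overlapped (log2 fold change 0.78 ± 0.80, interval -0.88 to 2.45). The 1 kb upstream was richer, with 22.8 and 15.9 RPM in brm and 16.8 and 20.1 RPM in wt, against 6.87 and 12.5 RPM in the inputs of brm and wt. An enriched region over PIN6, an auxin efflux carrier gene named here after its values were seen, ended 655 bp before the ADH1 start in brm and 455 bp before it in wt. PIN6 itself had 194 and 171 RPM in brm and 175 and 215 RPM in wt. ADH1 also shares 61 bp with AT1G77122 on the other strand.

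PDC1 (chr4:15952257-15954803, minus strand) had 3.02 and 1.07 RPM in brm and 7.01 and 4.20 RPM in wt. Both brm libraries were below both wt libraries, and all 4 were well under the inputs of 31.4 RPM in brm and 22.1 RPM in wt. The log2 fold change of -1.44 ± 0.77 had an interval that crossed 0 (-3.05 to 0.17), and it rested on 8 and 4 distinct reads in brm and 15 and 10 in wt. No enriched region lay within 9657 bp of it in brm or within 11057 bp in wt.

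HRE1 and HRE2, the ERF-VII genes that are themselves induced by hypoxia, were unmarked over their spans but differed in their surroundings. HRE1 (chr1:27241696-27242968, plus strand) had 0.94 and 2.02 RPM in brm and 3.74 and 0.99 RPM in wt, with inputs of 16.4 RPM in brm and 14.0 RPM in wt, and the genotypes overlapped (log2 fold change -0.67 ± 0.98). Its nearest region enriched in both replicates was 24696 bp away in both genotypes. The bin centred 1900 bp before its start, picked as the highest, held 29.2 and 16.7 RPM per kb in brm and 8.17 and 53.6 in wt. The inputs there were 7.05 in brm and 11.0 in wt, so the wt replicates disagreed. The gene shares 124 bp with AT1G72370 on the other strand. HRE2 (chr2:19502776-19503702, minus strand) had 2.29 and 3.33 RPM in brm and 3.74 and 4.31 RPM in wt, with inputs of 9.86 RPM in brm and 6.46 RPM in wt. Its log2 fold change was -0.52 ± 0.75.

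HRE2 began at the edge of a long domain. A region of 8800 bp, chr2:19503801-19512600, with the same limits in both genotypes, started 99 bp before the HRE2 start and thus within the promoter sequence printed above. The 1 kb upstream held 76.0 and 58.2 RPM in brm and 76.4 and 74.2 RPM in wt, against 8.10 RPM in the brm input and 6.46 RPM in the wt input, and the genotypes overlapped. The bin centred 1100 bp before the start held 126 and 118 RPM per kb in brm and 154 and 155 in wt. The one centred 2300 bp before it held 177 and 139 in brm and 103 and 102 in wt. Of the bins plotted around HRE2, the first had the highest mean in wt and the second the highest in brm. The genotypes were apart in both, in opposite directions. In the bin centred 100 bp before the start there were 4.17 and 17.8 in brm and 14.0 and 14.9 in wt. AT2G47530, a gene of the Ole e 1 family inside this domain and named after its values were seen, was covered over 100% of its span in both genotypes, with 92.5 and 79.1 RPM in brm and 89.2 and 96.6 RPM in wt.

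**Figure D3:**
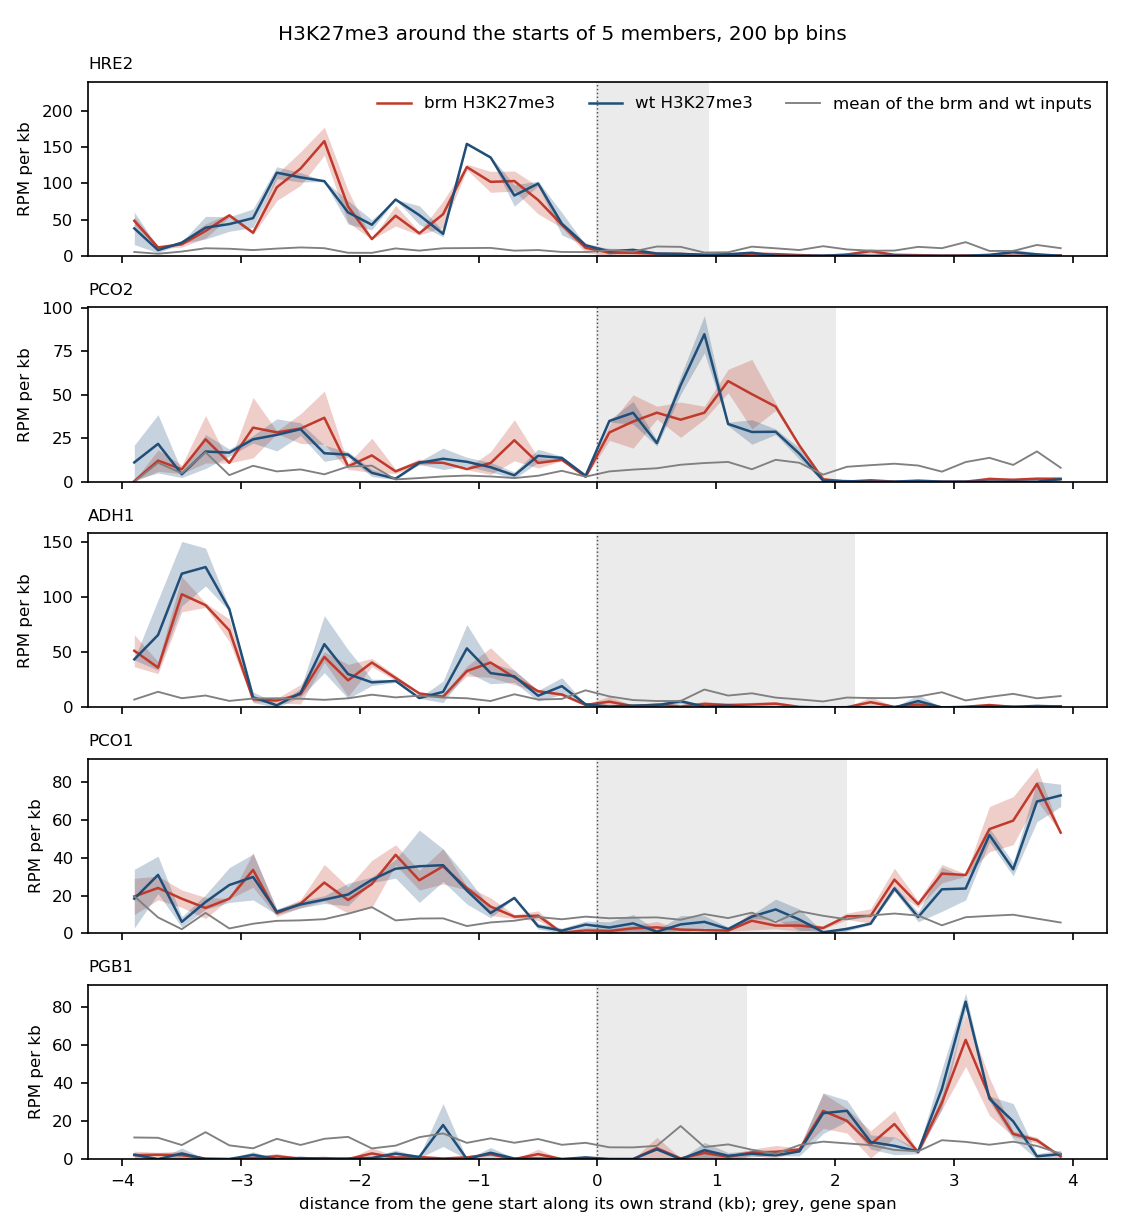
H3K27me3 in RPM per kb (y axis) in 200 bp bins against the distance in kb from the gene start along the strand of the gene, for 5 members; lines are means of 2 libraries (brm red, wt blue), shading spans the 2 libraries, the grey line is the mean of both inputs, and the grey box is the gene span. The signal stops before the start of HRE2 and of ADH1, lies on both sides of PCO1 and after PGB1, and covers PCO2 itself.

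PCO2 (chr5:15974270-15976270, plus strand), which encodes an oxygen-sensing cysteine oxidase, carried the mark in both genotypes. It had 70.8 and 69.8 RPM in brm and 70.5 and 67.2 RPM in wt, with 18.5 RPM in the brm input and 16.2 RPM in the wt input. The genotypes overlapped, and the log2 fold change of 0.03 ± 0.19 had an interval from -0.37 to 0.43. Against the inputs the log2 fold change was 2.02 ± 0.18 in brm (edgeR, adjusted p = 7.2e-06) and 1.99 ± 0.18 in wt (adjusted p = 7.6e-06). The enriched region, 1600 bp in brm and 2200 bp in wt, covered 79.96% of the span in brm and 86.5% in wt.

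The signal of PCO2 stopped near the end of the gene. In its 1 kb downstream there were 0.31 and 0 RPM in brm and 0 and 0.33 RPM in wt, although the inputs gave 7.57 RPM in brm and 9.77 RPM in wt. In the 1 kb upstream there were 7.82 and 16.4 RPM in brm and 9.81 and 7.73 RPM in wt. The bin centred 900 bp after the start held 36.0 and 43.4 RPM per kb in brm and 74.1 and 95.6 in wt. The one centred 1100 bp after it held 64.6 and 51.1 in brm and 32.1 and 34.2 in wt. The first of these bins was picked as the highest in wt and the second as the highest in brm. The genotypes were apart in both, in opposite directions.

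PCO1 (chr5:4898641-4900734, plus strand), the paralog of PCO2, was not marked. It had 6.57 and 5.83 RPM in brm and 12.6 and 8.18 RPM in wt, under its inputs of 19.4 RPM in brm and 17.2 RPM in wt. Both brm libraries were below both wt libraries, and the log2 fold change of -0.74 ± 0.52 had an interval from -1.83 to 0.35. The gene sat in a gap between enriched stretches, with the next region starting 267 bp after its end in brm and 667 bp after it in wt. Its 1 kb downstream had 20.4 and 19.4 RPM in brm and 15.2 and 12.6 RPM in wt, so there the brm libraries were the higher ones. AT5G15110, a pectate lyase gene on its upstream side that was named after its values were seen, had 57.02 and 48.9 RPM in brm and 49.4 and 55.4 RPM in wt.

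PGB1 (chr2:6982531-6983777, minus strand), whose product scavenges nitric oxide, had 2.61 and 2.02 RPM in brm and 3.50 and 1.10 RPM in wt, with inputs of 8.63 RPM in brm and 11.7 RPM in wt. The genotypes overlapped (log2 fold change 0.01 ± 0.88, interval -1.83 to 1.85). A region of 1800 bp over AT2G16050, a gene named after its values were seen, lay 531 bp beyond its end and had the same limits in brm and wt. HRA1 (chr3:3096345-3098417, minus strand), a trihelix transcription factor that restrains the ERF-VII RAP2.12, had 1.67 and 1.90 RPM in brm and 2.22 and 3.31 RPM in wt, far below its inputs of 21.5 RPM in brm and 20.2 RPM in wt. Both brm libraries were below both wt libraries by a small margin (log2 fold change -0.63 ± 0.86).

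**Figure D4:**
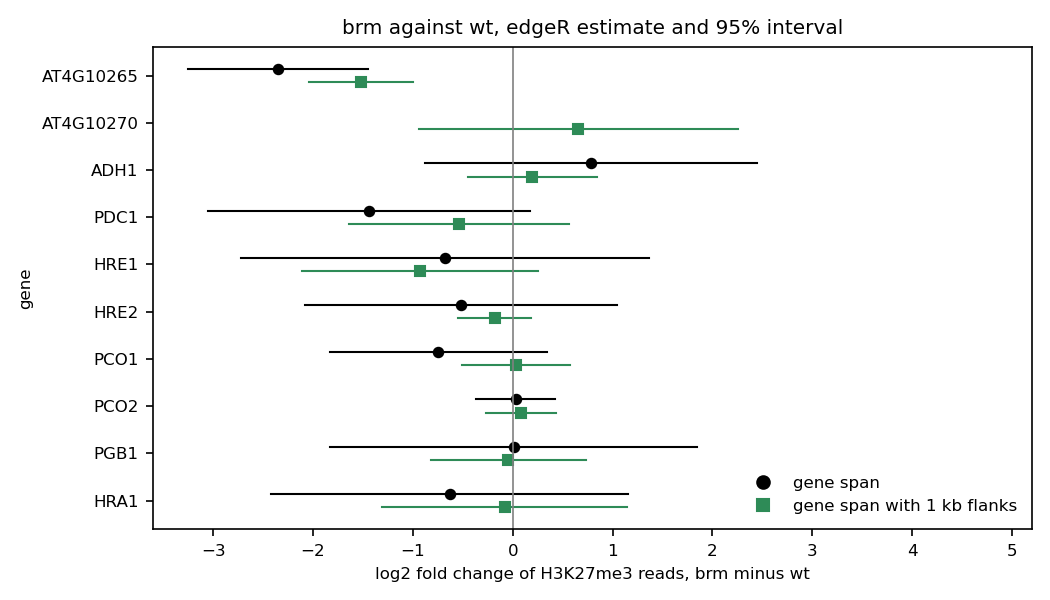
Log2 fold change of H3K27me3 reads, brm minus wt, with its 95% interval from edgeR, for each member over the gene span (black circles) and over the span with 1 kb flanks (green squares); AT4G10270 had too few reads over the span to be fitted. The intervals of AT4G10265 lie below 0 (-3.25 to -1.45 over the span), and those of the other members include 0.

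Across the members the median log2 fold change over the span was -0.63, against -0.05 over all genes. Both brm libraries lay below both wt libraries in 5 of the 9 members tested (AT4G10265, PDC1, HRE2, PCO1 and HRA1), against 20.2% of all genes, and above them in 0, against 17.4%. AT4G10270, left out of this count for too few reads, had both brm libraries above both wt libraries (1.04 and 0.59 RPM against 0 and 0). These shares come from the contrast known when the members were chosen, and nothing is read from them. With flanks the median was -0.06, and both brm libraries were below both wt libraries in 2 members only, AT4G10265 and HRE1, against 18.6% of genes, and above them in 1, AT4G10270, against 21.1%. In the 1 kb flanks taken singly, edgeR called 0 members, and it called 0.0124% of all upstream flanks higher and 0 of all 24154 downstream flanks, of which 1186 were higher and 704 lower at an unadjusted p under 0.05. DESeq2 called 35 downstream flanks higher and 28 lower, that of AT4G10265 among the lower ones, and so did edgeR on reads at distinct positions and without wt replicate 2 for AT4G10265.

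Compared with input on total reads, edgeR called 1 member higher in brm (PCO2) and 7 lower (HRE1, ADH1, PGB1, HRE2, HRA1, PDC1 and PCO1), where 20.5% and 59.5% of all genes were higher and lower (80% in all). In wt 2 members were higher (PCO2 and AT4G10265) and 6 lower (HRE1, ADH1, PGB1, HRA1, AT4G10270 and PDC1), where 20.4% and 59.4% of all genes were (79.7% in all). The median log2 fold change of the members was -2.11 in brm and -2.19 in wt, close to the medians of all genes, -2.47 in brm and -2.37 in wt. A level below input was thus the common state of genes on this scale, and scaling that sets the typical gene to 0 raised the values by a median over genes of 1.96 (TMM) or 2.15 (DESeq2) in brm and of 1.92 or 2.10 in wt. With either scaling HRE2 and PCO1 turned positive in both genotypes and AT4G10265 turned positive in brm (1.64 and 1.84), and with DESeq2 so did ADH1 and PGB1 in brm. With either scaling 2 members were called higher than input in brm. Of the members that turned positive there, AT4G10265 had the largest value. Whether AT4G10265 lay above input in brm thus depended on the scaling. HRA1, HRE1, PDC1 and AT4G10270 stayed negative in both genotypes. HRA1 was at -3.53 ± 0.55 in brm (adjusted p = 0.00027) and -2.90 ± 0.53 in wt (adjusted p = 0.00071).

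Outside the members, edgeR called no tested gene of the wider pathway over the gene span. Of all genes it called 0.0971% lower in brm and 0.0777% higher. At such shares a count of 0 in a list this short says little, and the same holds for the wound-responsive genes below. Of 45 further genes in 5 lists (ERF-VIIs and other N-degron substrates, oxygen-sensing enzymes, fermentation and sugar use, phytoglobins, and core hypoxia-induced genes), 44 were tested between brm and wt and 0 passed FDR 0.05 in edgeR, with a median log2 fold change of 0.25. At an unadjusted p under 0.05 there were 5 higher and 1 lower in brm, against 993 higher and 1399 lower of all 30906 genes tested, and DESeq2 also called 0. Marked genes numbered 8 of the 45 in brm and 5 in wt, where 19.3% of all genes were marked in brm and 18.7% in wt. All 6 oxygen-sensing enzymes and all 5 ERF-VIIs and other N-degron substrates were unmarked in both genotypes. SAD6, a stearoyl-ACP desaturase gene of the core list, was marked in both, with 133 and 140 RPM in brm and 124 and 165 RPM in wt. PGB2 had 28.8 and 19.7 RPM in brm and 18.7 and 14.0 RPM in wt, and regions covered 100% of it in brm and 0% in wt, while its log2 fold change was 0.57 ± 0.34. PDC3, a pyruvate decarboxylase gene, had 59.8 and 63.1 RPM in brm and 38.0 and 46.3 RPM in wt (covered over 95.5% in brm and 37.6% in wt). AT3G61930, of the core list and marked in both genotypes, had 38.3 and 41.0 RPM in brm and 40.8 and 81.1 RPM in wt, so the genotypes overlapped, and its log2 fold change of -0.62 ± 0.26 was the 1 lower value at an unadjusted p under 0.05. Of the 7 other genes annotated as wound-responsive family proteins, 0 were marked in either genotype, and over the gene span 0 of the 6 tested were called by edgeR or DESeq2 or had an unadjusted p under 0.05. With flanks 0 of 7 were called, and 1 had an unadjusted p under 0.05, lower in brm.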

How the data were processed

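Seedling chromatin was immunoprecipitated with an H3K27me3 antibody and sequenced on an Illumina Genome Analyser IIx. The authors mapped reads with Bowtie 0.12.7 to TAIR10, kept perfect and unique matches, and called regions with SICER 1.1. The deposited files list 1 read of 37 bp per line, so each value is a raw count of deposited reads that was not normalized, and the deposited score column (0 throughout) was not used. Duplicates were kept, except where reads at distinct positions are named.

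Reads were placed by the 5′ end moved by 75 bp and counted over TAIR10.1 gene spans and 1 kb flanks. These gene models are later than those of TAIR10. edgeR 4.0.16 (R 4.3.3; quasi-likelihood, robust, filterByExpr, total nuclear reads as library size, Benjamini-Hochberg over all genes, FDR 0.05) compared the 2 brm with the 2 wt libraries, in place of the ChIPDiff program of the study, and each genotype with both inputs pooled. An exact test of 2 against 2 libraries cannot reach 0.05. Regions were rebuilt after SICER (200 bp windows, 600 bp gap, 1 read per position and strand, Poisson test against input, FDR 0.01, both replicates), and a gene was marked at 50% cover. Likeness was measured on log2(RPM per kb + 0.5) over genes of at least 300 bp. Alternatives were TMM, DESeq2 1.42.0, distinct reads, no filter, no shift, each library left out, a replicate block, and other cover, gap and FDR settings.

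The members and the pathway lists were chosen with earlier results of these data known. Named were the members, both annotated neighbours on each side of the pair, the 3 genes most like AT4G10265, list genes past FDR 0.05 (none) and at most 4 examples from the lists. Genes outside this rule are identified in the text. The other neighbours, AT4G05775 and AT4G10280, had at most 0.417 and 1.55 RPM of H3K27me3.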

Additional observations from a re-analysis of the deposited data

How the results depend on the processing

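Counts of genes called between brm and wt moved with the processing, and they are given as higher and lower in brm. Over the gene span, edgeR called 24 and 30, against 110 and 101 with 1 read per position and strand, 79 and 105 without the low-count filter and 72 and 61 with DESeq2. With 1 kb flanks it called 155 and 80, against 578 and 331 with 1 read per position and strand, and 142 lower with DESeq2. Upstream it called 3 and 0, against 1 lower with TMM, 595 and 139 with 1 read per position and strand, 87 and 24 without the filter and 66 and 60 with DESeq2. Downstream it called 0 and 0, against 2 and 1 with TMM, 335 and 121 with 1 read per position and strand, 15 and 6 without the filter, 35 and 28 with DESeq2 and 3 and 1 without the shift of reads. Leaving out 1 library gave 8 to 269 higher and 10 to 628 lower over the span, 37 to 650 and 29 to 583 with flanks, 4 to 525 and 3 to 241 upstream, and 3 to 301 and 1 to 169 downstream. TMM and DESeq2 moved the median over genes by -0.14 upstream. The cause of these changes was not tested.

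With the replicate number as a block the counts were 86 and 94 over the span, 264 and 159 with flanks, 19 and 4 upstream and 13 and 4 downstream. Deviations of same-numbered libraries correlated at 0.0281. With 2 libraries per genotype this is a single value, which does not settle whether the numbers pair the samples. The block changed no count of members called.

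Among the members, the count called lower over the span was 1, and it was 0 without the shift and 0 to 1 when 1 library was left out. Downstream it was 0, against 1 with 1 read per position and strand, 1 with DESeq2 and 0 to 1 when 1 library was left out. Members marked in brm were 1, and 0 at 80% cover, since PCO2 was covered over 79.96%.

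Against input, genes called lower numbered 21420 in brm (TMM 4599, DESeq2 2779) and 21385 in wt (TMM 4917, DESeq2 3086), and DESeq2 called 11097 higher in brm, against 7389. Members called lower were 7 in brm (TMM 2, DESeq2 1, 4 to 8 when 1 library was left out) and 6 in wt (TMM 1, DESeq2 1), and members higher in brm were 1 (TMM 2, DESeq2 2). Log2 fold changes turned positive for HRE2 in brm (TMM 0.43, DESeq2 0.63) and wt (0.91, 1.10), for PCO1 in brm (0.40, 0.59) and wt (1.11, 1.29), for AT4G10265 in brm (1.64, 1.84, and 0.13 with 1 read per position and strand), and with DESeq2 for ADH1 (0.026) and PGB1 (0.0042) in brm. Scaling by construction sets the typical gene near 0.

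Few distinct reads limit the unmarked members: with 0 to 31 per library, the intervals of their fold changes are wide.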
